A study of Homo sapiens with 2 samples.

Results

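The regions described here are the ends of protein-coding genes at which PRO-cap called several transcription starts of the same strand, all pointing into the gene. A member was an outer end of a coding gene of 2000 bp or more with 2 or more calls of 1 strand within 500 bp of that end. This rule found 1121 ends, which are 3.01% of the 37222 ends of the 18611 coding genes of that length, one end in each of 1121 genes (6.02% of those genes). A call into the gene was present at 8103 ends, of which members were 13.8% (95% Wilson interval 13.1 to 14.6), and in 8004 genes, of which members were 14.0%. The other 6982 ends held 1 such call and serve here as the comparison. The cells were HUDEP-2, wild-type, a human line immortalised at the stage of erythroid progenitors, which can mature towards red cells in culture. The labels give 2 replicates of this 1 group, with no treatment, no mutant and no second cell type. PRO-cap lets engaged polymerases extend nascent RNA with labelled nucleotides in isolated nuclei and reads that RNA from its capped 5′ end. Calls were deposited without read counts, strengths or replicate values. The depth behind a call and the spread between replicates are therefore unknown, and every interval and p-value below covers counting error only.

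Mammalian promoters rarely start transcription at a single base. Many lie in stretches rich in CpG, where RNA polymerase II starts at a number of nearby bases, and most also start an unstable transcript in the opposite direction from the upstream edge of the same nucleosome-free region. A gene can in addition have alternative promoters, each with its own core sequence, which change the first exon or the untranslated leader of the messenger RNA. In erythroid cells some genes use an erythroid promoter beside the one that other cells use.

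Positions are given as distances from the outer end of the gene in the RefSeq gene table, where 0 is the outermost base of the gene, positive values lie inside the gene and negative values outside it. The 3 promoter windows that follow are shown because each holds 2 calls of 1 end inside a single annotated window of 300 bases (250 before the annotated start and 50 from it on), which was the case for 23 members. Sequences are from RefSeq, GRCh38.p14, the same build as hg38, and run 5′ to 3′ on the strand of the calls. Capitals mark the called base and the base after it.
CTR9 (chr11:10750996-10751295, + strand, calls at -232 and 31): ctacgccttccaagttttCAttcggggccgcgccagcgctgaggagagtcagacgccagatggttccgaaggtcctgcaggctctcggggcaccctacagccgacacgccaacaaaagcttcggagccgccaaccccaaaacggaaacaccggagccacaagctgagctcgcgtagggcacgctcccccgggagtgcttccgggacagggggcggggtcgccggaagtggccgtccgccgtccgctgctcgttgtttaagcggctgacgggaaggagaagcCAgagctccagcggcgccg
B9D1 (chr17:19377864-19378163, - strand, calls at -247 and 18): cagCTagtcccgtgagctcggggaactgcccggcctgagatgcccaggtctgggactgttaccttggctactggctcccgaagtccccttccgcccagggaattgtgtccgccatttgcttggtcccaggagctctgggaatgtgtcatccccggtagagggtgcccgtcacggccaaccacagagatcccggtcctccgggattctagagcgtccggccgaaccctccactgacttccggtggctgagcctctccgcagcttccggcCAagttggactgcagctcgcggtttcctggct
COPS7A (chr12:6724037-6724336, + strand, window of an annotated start 241 bp inside the gene end): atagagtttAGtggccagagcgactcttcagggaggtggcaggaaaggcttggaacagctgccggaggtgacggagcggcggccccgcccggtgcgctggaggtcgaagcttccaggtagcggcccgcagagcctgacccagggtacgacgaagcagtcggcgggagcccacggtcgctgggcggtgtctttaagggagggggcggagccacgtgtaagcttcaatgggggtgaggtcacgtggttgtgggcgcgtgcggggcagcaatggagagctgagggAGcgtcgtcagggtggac
CTR9 encodes a subunit of the PAF1 elongation complex, and B9D1 a protein of the base of the cilium. In the CTR9 window the upstream and the downstream call each lay on the C of a CA, as did the downstream call of B9D1, while the upstream call of B9D1 lay on the C of a CT and both COPS7A calls lay on the A of an AG. All 3 windows hold the hexamer GGGCGG or its complement on the other strand, and none holds TATAA. The window of FEN1, another member with 2 calls in 1 window, holds no GGGCGG on either strand. Of the member windows compared below, 70.4% hold GGGCGG and 9.48% TATAA.

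The windows of erythroid members usually reached only the call at the annotated start, since the other call lay farther away. For those a shorter stretch of 42 bases is shown, 20 on the 5′ side of the called base, with the same use of capitals. These stretches were picked after the calls had been seen, to show the called base of genes known in red cells.
KLF1, call at 3 (chr19:12887177-12887218, - strand): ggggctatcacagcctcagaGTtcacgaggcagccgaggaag
RHAG, call at -1 (chr6:49636819-49636860, - strand): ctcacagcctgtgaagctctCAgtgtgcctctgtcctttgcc
CAT, call at -1 (chr11:34438913-34438954, + strand): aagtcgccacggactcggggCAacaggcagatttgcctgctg
BPGM, call at 1 (chr7:134646834-134646875, + strand): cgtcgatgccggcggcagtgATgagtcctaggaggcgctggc
STAT5B, call at -1 (chr17:42288350-42288391, - strand): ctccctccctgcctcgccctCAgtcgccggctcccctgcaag
STOM, call at 1 (chr9:121370228-121370269, - strand): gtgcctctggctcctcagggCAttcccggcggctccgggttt
STOM, call at 432 (chr9:121369797-121369838, - strand): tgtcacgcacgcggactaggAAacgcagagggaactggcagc
RHAG, CAT, STAT5B and the first call of STOM were on the C of a CA. KLF1, BPGM and the inner call of STOM were not. Of the erythroid stretches that were read but are not shown, FBXO7 and FOXO3 were on the C of a CA. ATF4, DNMT1, E2F2, SLC25A38 and ZBTB7A were not. The share over all nearest calls of members that could be read was 37.5%.

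Bases could be read for calls inside an annotated promoter window, which were 823 of 1107 nearest calls of members, 176 of 694 downstream calls and 99 of 463 upstream calls, so that most of the other calls were not read. A CA at the called base and the base after it was found at 309 of these 823 nearest calls (37.5%, 34.3 to 40.9), and at 1820 of 5013 calls of ends with 1 call (36.3%, 35.0 to 37.6). Among the other calls of member ends that could be read it was found at 69 of 176 downstream calls (39.2%, 32.3 to 46.6) and at 35 of 99 upstream calls (35.4%). Read with the base before the call and the call itself, the place at which an initiator would put the start, CA was at 0.365% of nearest calls of members and at 1.36% of calls of ends with 1 call. Among calls with a CA at either place, the deposited coordinate thus mostly lay on the C, 1 base before the A, on both strands. Most calls that were read had no CA at either place, and all distances here keep the deposited coordinate.

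Every member held 2 or 3 calls. There were 1070 ends with 2 calls and 51 ends with 3 (4.55%), and none with 4. No gene met the rule at both of its ends. The members held 2264 different calls, 8.60% of the 26332 calls on chromosomes 1 to 22 and X, and 560 of the 1121 ends held calls of the forward strand. Calls were shared by 28 of these ends in 14 pairs, mostly a gene and a read-through or overlapping entry such as PMF1 and PMF1-BGLAP or COMMD3 and COMMD3-BMI1, so that shares below are over 1107 ends counted once, against 6890 ends with 1 call counted the same way. Members were on all these chromosomes, and their share of the ends with a call ran from 6.28% on chromosome X (3.78 to 10.3) to 21.2% on chromosome 6 (17.3 to 25.6).

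The annotation placed these calls at the starts of genes. A strand could be had from the RefSeq promoter table for 962 of the 1121 ends, and 948 of those were the annotated 5′ end of their gene (98.5%, 97.6 to 99.1), against 5610 of 5761 ends with 1 call (97.4%, 96.9 to 97.8). The other 159 member ends have no strand in that table and are counted by their outer coordinate alone. Of 150 genes of 5 erythroid lists, 110 had a call into the gene at an end (73.3%, 65.7 to 79.8). The share was 43.0% over all 18611 coding genes of 2000 bp or more, and 3 of 35 markers of other blood lineages had such a call. The lists were chosen with earlier results of these data known, so that these counts are no independent check of the cells.

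The call nearest the gene end sat almost on it. Its median position was 2 bp (quartiles -1 and 30, lowest -368, highest 443) at ends with several calls, against 4 bp (quartiles -1 and 33) at ends with 1 call. The most frequent position was -1 in both, with 182 of 1107 nearest calls (16.4%), against 1144 of 6890 (16.6%). Within 10 bp of the end lay 46.3% of the nearest calls of members (43.4 to 49.3) and 45.0% of the calls of ends with 1 call (43.8 to 46.2), and within 50 bp 78.3% and 76.7%. These were not tested, because the nearest of several calls has more chances to lie close. The intervals overlap, so that the best placed call of a member was about as close to the annotation as the call of an end with 1 call.

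**Figure D1:**
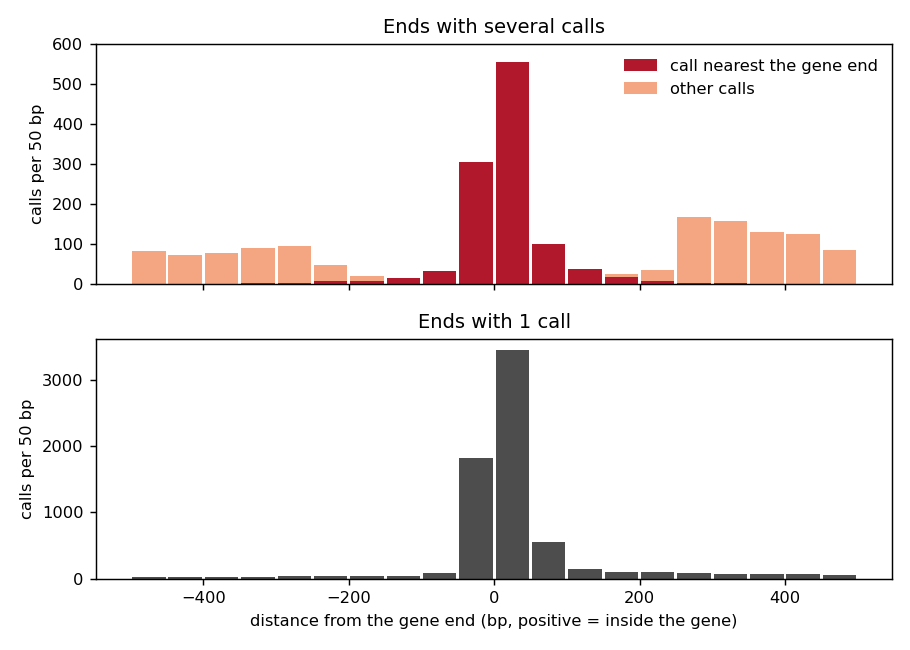
Positions of calls, in bp from the gene end (positive inside the gene), as numbers of calls per 50 bp, at ends with several calls (top, the call nearest the end and the other calls stacked) and at ends with 1 call (bottom). Nearest calls pile up at the gene end in both, and the other calls of members lie mainly 250 to 500 bp away on either side.

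The other calls lay on both sides. At the 1057 ends with 2 calls counted once, the other call was downstream of the nearest one, further into the gene, at 645 (61.0%, 58.0 to 63.9) and upstream at 412 (39.0%, 36.1 to 42.0). Over all members there were 694 downstream calls with a median position of 347 bp (quartiles 292 and 413) and 463 upstream calls with a median of -351 bp (quartiles -430 and -289). At 49 of the 50 ends with 3 calls counted once the nearest call was the middle one, an arrangement that the width of the window and the spacing of calls all but fix.

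Spacing is bounded on both sides. The smallest distance between any 2 calls of 1 strand in the lists is 251 bp, and the window allows at most 1000 bp. The 1157 gaps between neighbouring calls of members had a median of 347 bp (quartiles 292 and 423, highest 899), and 1085 of them (93.8%) were 500 bp or less, a share that the window largely sets. Among gaps of up to 500 bp, members had a median of 340 bp (quartiles 288 and 406), and 2029 other pairs of same-strand neighbours had a median of 344 bp (quartiles 288 and 420). Gaps of 251 to 300 bp made up 32.0% of these gaps of members (29.3 to 34.8) and 31.8% of the others (29.8 to 33.8). Over this range the spacing of members was thus close to that of same-strand neighbours elsewhere, and no test was made, since the rule selects on the same positions. With the other call upstream the median gap of 2-call ends was 370 bp, and with the other call downstream it was 335 bp. At 93 of the 1070 ends with 2 calls (8.69%) the gap was 251 to 260 bp, so that part of the members sit at the lower limit of the spacing. Whether a start closer than that limit was merged into a neighbouring call cannot be seen in the lists.

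**Figure D2:**
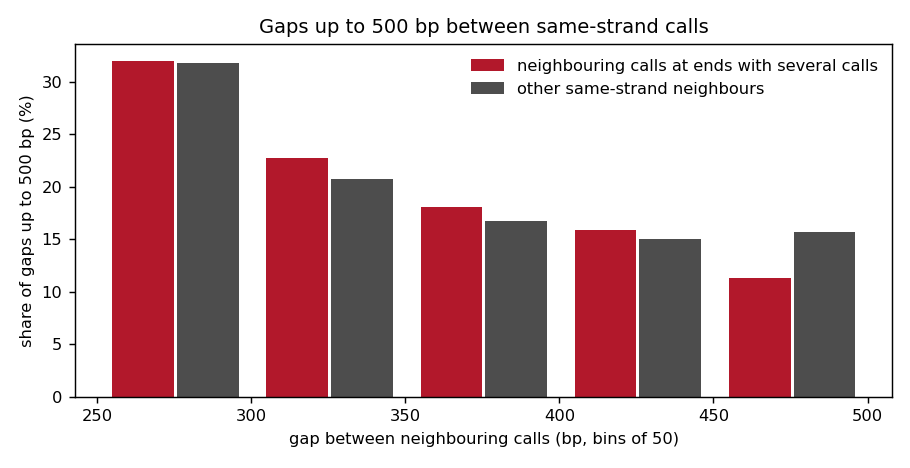
Gaps of up to 500 bp between neighbouring calls of the same strand, in bins of 50 bp, as percent of all such gaps, at ends with several calls (left bar of each bin) and for other same-strand neighbours (right bar). The bin from 251 to 300 bp holds 32.0% of the gaps of members and 31.8% of the others, and the bin from 451 to 500 bp, which the window cuts for members, holds 11.3% and 15.7%.

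The narrowest pairs were APOL1 (chromosome 22, calls at 0 and 251), CARHSP1 (chromosome 16, -1 and 250) and COMMD4 (chromosome 15, 0 and 251), the first by symbol of 8 pairs at the smallest gap. APOL1 encodes an apolipoprotein that lyses trypanosomes, CARHSP1 an RNA-binding protein and COMMD4 a protein of the COMMD family. In each of the 3 the outer call lay on the gene end or 1 base from it. The widest pairs were BEND3 (chromosome 6, -456 and 443), which encodes a DNA-binding repressor, CFAP52 (chromosome 17, -478 and 366), and PLAGL1 (chromosome 6, -345 and 494), an imprinted zinc-finger gene. In these no call lay near the annotated end, which gaps this wide and the 500 bp window fix in advance.

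The window edge decides some members. In 20 of them membership rests on a call 496 to 500 bp from the end, such as NDUFS8, RIOK2 and WDPCP at -500 and AKAP8 and MSH3 at 500. In 10 ends with 1 call another call lay just outside the window, such as BNIP2 and FBXO8 at 502 and SMIM1 at -505. MICOS13 (2095 bp) was just long enough, while PIGBOS1 (1940 bp) and TIMM13 (1962 bp), each with 2 calls at 1 end, were too short.

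Ends with several calls also differed in the calls of the opposite strand, which the rule did not use. A divergent partner is here an opposite-strand call that lies at most 300 bp upstream of the call nearest the gene end and runs away from it. It was present at 664 of 1107 ends with several calls (60.0%, 57.1 to 62.8) and at 3386 of 6890 ends with 1 call (49.1%, 48.0 to 50.3). The difference was 10.8 percentage points (95% Newcombe interval 7.69 to 13.9, odds ratio 1.55, two-sided Fisher's exact test, adjusted p = 1.02e-10 by the Benjamini-Hochberg method over 9 comparisons). When the outermost call of each member was used in place of the nearest one, the shares were 50.1% and 49.1% and the difference did not pass the test (exact test, adjusted p = 0.720). The median distance of the divergent partner was 134 bp (quartiles 89.8 and 189) at ends with several calls and 157 bp (quartiles 114 and 211) at ends with 1 call. Ends are not replicates of a condition, and neighbouring ends can share calls, which these tests do not take into account.

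A convergent partner is an opposite-strand call 1 to 300 bp downstream, so that both calls run towards each other. It was present at 267 of 1107 ends with several calls (24.1%, 21.7 to 26.7) and at 379 of 6890 ends with 1 call (5.50%, 4.99 to 6.06). This was the largest of the 9 differences at 18.6 percentage points (16.1 to 21.3, odds ratio 5.46, two-sided Fisher's exact test, adjusted p = 6.00e-73). With a limit of 150 bp the shares were 2.89% and 0.755%, a difference of 2.14 percentage points that passed the test. With the outermost call of each member in place of the nearest one the difference was 35.4 percentage points. The rule itself bears on that value, because every outermost call has another inward call downstream, whose divergent partner can count as its convergent one. At 2-call ends the nearest call had a convergent partner at 33.5% where the other call was downstream. Where the other call was upstream the share was 6.80% (4.74 to 9.65), near the 5.50% of ends with 1 call. The median distance within 300 bp was 222 bp (quartiles 188 and 247) at ends with several calls and 228 bp (quartiles 194 and 251) at ends with 1 call. Both kinds of partner were present at 155 ends with several calls (14.0%), against 176 ends with 1 call (2.55%), and neither kind at 331 (29.9%), against 3301 (47.9%).

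**Figure D3:**
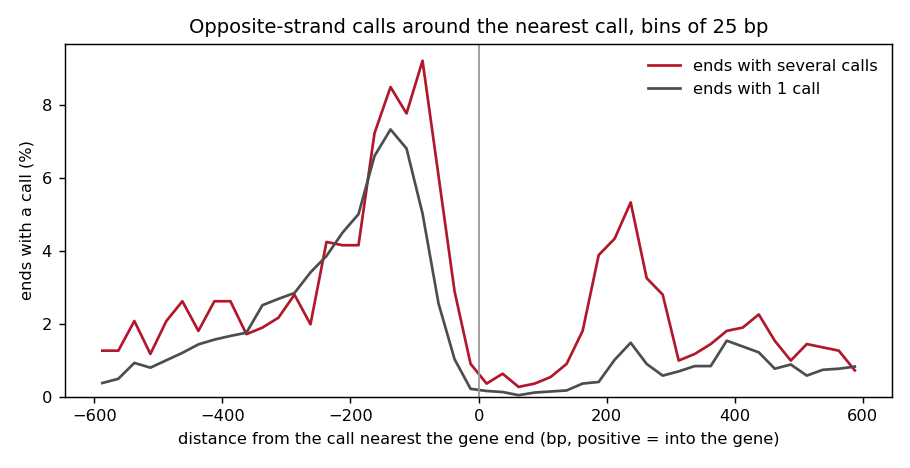
Percent of ends with an opposite-strand call in each bin of 25 bp around the call nearest the gene end, for ends with several calls and for ends with 1 call (positive distances run into the gene). Ends with several calls peak at 9.21% in the bin from -100 to -75 bp and have a further peak of 5.33% in the bin from 225 to 250 bp, where ends with 1 call have 1.48%.

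Opposite-strand calls often lay between the same-strand calls of an end. Where the other call was upstream, an opposite-strand call lay between both calls at 262 of 412 ends (63.6%, 58.8 to 68.1), and 208 of these upstream calls (50.5%) had a convergent partner, against 28 of the nearest calls at the same ends (6.80%). Where the other call was downstream, an opposite-strand call lay between them at 264 of 645 ends (40.9%, 37.2 to 44.8), and 216 of the nearest calls (33.5%, 30.0 to 37.2) had a convergent partner, against 81 of the downstream calls (12.6%). Such a call runs towards the outer start and away from the inner one, so that these counts describe the same calls from either side. A divergent partner at each of the 2 calls was present at 96 of the 412 ends (23.3%) and at 149 of the 645 (23.1%). At the 50 ends with 3 calls, 37 of the nearest calls had a divergent partner (74.0%, 60.4 to 84.1) and 23 a convergent one (46%, 33.0 to 59.6).

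Further starts followed inside the gene. In genes of 5000 bp or more another call of the same strand lay more than 500 and up to 2500 bp inside the end at 129 of 1028 ends with several calls (12.5%, 10.7 to 14.7) and at 544 of 6328 ends with 1 call (8.60%, 7.93 to 9.31). The difference was 3.95 percentage points (1.93 to 6.22, Fisher's exact test, two-sided, adjusted p = 0.000200). The same distance outside the gene held a same-strand call at 138 ends with several calls (12.5%, 10.6 to 14.5) and at 718 ends with 1 call (10.4%, 9.72 to 11.2), which was not tested. Gene length hardly differed between the classes, with a median of 30441 bp for ends with several calls and 28892 bp for ends with 1 call. A coding neighbour is here another coding gene that extends away from the end, its facing outer coordinate 1000 bp outside to 500 bp inside it. The strand of the neighbour was not used, so that genes running the same way can be counted along with head-to-head ones. Such a neighbour was present at 331 of 1107 ends with several calls (29.9%, 27.3 to 32.7). It was present at 1782 of 6890 ends with 1 call (25.9%, 24.8 to 26.9), also not tested. Without the ends that had a coding neighbour the divergent difference was 11.7 and the convergent difference 18.9 percentage points.

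Promoter sequence was compared over the 865 member ends and 5217 ends with 1 call that have an annotated window at the outer end. Each motif was searched on both strands, and no motif contains another. CCAAT, the box bound by NF-Y, was in 289 windows of ends with several calls (33.4%, 30.3 to 36.6) and in 2130 windows of ends with 1 call (40.8%, 39.5 to 42.2), a difference of -7.42 percentage points (-10.8 to -3.94, Fisher's exact test, two-sided, adjusted p = 0.000109). GGGCGG, the core of the GC box bound by SP1 and related factors, was in 609 (70.4%, 67.3 to 73.4) and 3942 (75.6%, 74.4 to 76.7), a difference of -5.16 percentage points (-8.49 to -1.98, adjusted p = 0.00270 by the same exact test). In all 34961 promoter windows of the table the shares were 34.6% for CCAAT and 45.0% for GGGCGG. These were the 2 motifs of 6 that passed the test, and both were less frequent at ends with several calls.

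The remaining motifs did not pass. TATAA, the core of the TATA box, was in 9.48% of windows of ends with several calls and 9.51% of those of ends with 1 call (interval of the difference -1.99 to 2.24 percentage points, against 20.4% of all windows). CCGGAA, the core of ETS factor sites, was in 37.2% of both (-3.36 to 3.58, against 17.3% of all windows). AGATAA, a form of the GATA site, was in 5.20% and 3.99% (-0.195 to 2.98, adjusted p = 0.148 by the exact test, against 10.3% of all windows). CACCC, the core of KLF sites, was in 61.0% and 62.4% (-4.89 to 2.11, adjusted p = 0.578 by the exact test, against 59.9% of all windows). Median GC content was 65.0% (quartiles 59.7 and 70.3) at ends with several calls and 65.7% (60.0 and 71.7) at ends with 1 call, and the median ratio of observed to expected CpG was 0.880 and 0.878. A motif match is a stretch of letters and does not show that a factor is bound there.

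**Figure D4:**
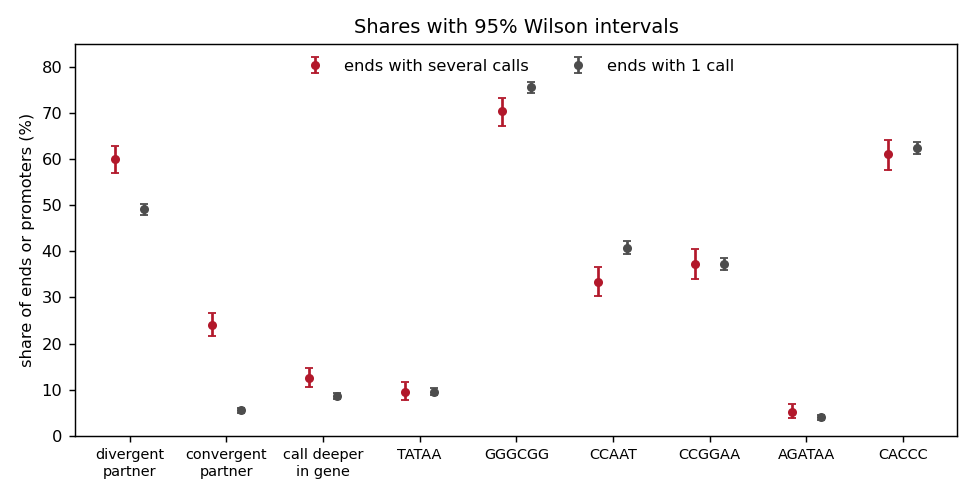
Shares of ends with a divergent partner, a convergent partner or a further call deeper in the gene, and shares of promoter windows with each motif, in percent with 95% Wilson intervals, for ends with several calls (left point of each pair) and ends with 1 call (right point). The convergent partner stands farthest apart at 24.1% against 5.50%, while TATAA and CCGGAA have overlapping intervals.

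The annotation of the extra calls was sparse. Among 5′ ends with annotated transcript starts, 721 of 935 nearest calls lay within 50 bp of an annotated start of their gene (77.1%, 74.3 to 79.7), against 117 of 590 downstream calls (19.8%, 16.8 to 23.2). No upstream call did, 0 of 379, which allows up to 0.792%, and this follows from the outer end being the outermost annotated start. The contrast of nearest and downstream calls is also set in part by the sorting. Nearest calls were chosen by their distance to the gene end, and downstream calls of members lay at least 164 bp inside it. Another coding gene covered 124 of 463 upstream calls (26.8%), 140 of 1107 nearest calls (12.6%) and 55 of 694 downstream calls (7.93%). An annotated outer end of some other gene, into which the call pointed, lay within 50 bp of 5 upstream calls (1.08%) and 5 downstream calls (0.720%). These genes were picked because their number is small. Transfer RNA genes, which RNA polymerase III transcribes, lay there upstream of DCT, HMGN4, POLR3E and TIA1, and the antisense gene THAP9-AS1 upstream of SEC31A. The microRNA gene MIR423 lay at the downstream call of NSRP1, and GABPB1-IT1, ST7-OT4 and LOC124901304 lay at those of GABPB1, ST7 and UQCC2.

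The 14 member ends that are the annotated 3′ end of their gene were CEBPB, CFAP52, GNRH2, LOC124900418, LOC124900839, MIP, MYL11, NBR1, PRICKLE4, PRKACA, TTL, TULP1, TYMP and ZBTB32. Calls here point into the gene against its direction. At 12 of the 14 (85.7%, 60.1 to 96.0) another coding gene extended away from the end, with its outer coordinate nearby. The share was 29.9% over all 1107 members counted once. Examples were TIMELESS at MIP, POLR1B at TTL, SAMD1 at PRKACA, USP43 at CFAP52 and KMT2B at ZBTB32. Whether opposite-strand calls entered these neighbours was not counted, and at CFAP52 neither call had an opposite-strand partner. ZBTB32 had 3 calls, at -430, 7 and 430, and the call at 7 had no divergent partner.

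Of 9 further ends with 3 calls, mostly the first by symbol, 8 had a divergent partner at the nearest call (88.9%, 56.5 to 98.0). This was near the 74.0% of all 50 ends with 3 calls. AP5S1, which encodes a subunit of an endosomal adaptor complex, had calls at -266, 8 and 276 (positions 3820281, 3820555 and 3820823 of chromosome 20, forward), with a divergent partner 84 bp upstream of the middle call. ARL2, a small GTPase of tubulin folding, had calls at -418, 8 and 313 on chromosome 11, and its outermost call alone had a divergent partner (151 bp). ARRDC2, which encodes an arrestin-like protein, had calls at -347, 1 and 271 on chromosome 19, with divergent partners at the middle call (100 bp) and the inner call (71 bp). In B9D1 the calls at -247, 18 and 272 interleaved with opposite-strand calls, with convergent partners 133 and 140 bp from the outer and middle calls and divergent partners 132 and 114 bp from the middle and inner calls. B9D1 faces MAPK7 head to head.

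CAGE1, which encodes a cancer-testis antigen and faces RIOK1, had calls at -349, 64 and 339 on chromosome 6. CAND1, an exchange factor of cullin ubiquitin ligases, had calls at -452, 49 and 316 on chromosome 12, each with a divergent partner (123, 255 and 70 bp). The 3 calls of CBLL1, a ubiquitin ligase, at -359, 3 and 463 on chromosome 7 also each had one (176, 159 and 23 bp). CENPH, of the kinetochore, had calls at -369, -18 and 252 on chromosome 5. CCNE2, a listed gene that encodes a cyclin of entry into S phase, had calls at -272, -7 and 435 on chromosome 8 with 2 more calls deeper in the gene. In 8 of the 9 the middle call lay within 50 bp of the gene end, against 78.3% of the nearest calls of all members. CAGE1 was the exception.

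Over the 5 erythroid lists, 19 of 150 genes of 2000 bp or more were members (12.7%, 8.26 to 18.9, against 6.02% of all coding genes of that length), and 19 of 110 with a call (17.3%, 11.3 to 25.4, against 14.0%). The second interval includes the background share. All 19 had 2 calls. The other call was downstream in 13 (68.4%, against 61.0% of all ends with 2 calls). The nearest call lay within 10 bp of the gene end in 10 (52.6%, against 46.3% of all members) and had a divergent partner in 10 (52.6%, against 60.0%). All 3 shares were near those of all members.

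Erythroid transcription factors held 8 members of 28 (28.6%, 15.3 to 47.1, against 6.02% of all coding genes), and 8 of the 19 with a call (42.1%, 23.1 to 63.7, against 14.0%). KLF1, the activator of adult globin expression, had calls at 3 and 492 (positions 12887198 and 12886709 of chromosome 19, reverse), with a divergent partner 112 bp upstream of the first and 1 more call deeper in the gene. E2F2, a transcription factor of the cell cycle, had calls at 13 and 343 on chromosome 1 and a divergent partner at 247 bp. NFIX, a repressor of fetal globin, had calls at 87 and 492 on chromosome 19, and the inner call had the divergent partner (122 bp).

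In the other 5 factors the outer call lay well outside the annotated end. STAT5B, which carries the signal of the erythropoietin receptor, had calls at -493 and -1 on chromosome 17, and the call at -1 had both a divergent (127 bp) and a convergent partner (207 bp). FOXO3, a factor of the antioxidant programme, had calls at -440 and -61 on chromosome 6. CBFA2T3, a corepressor of the TAL1 complex, had calls at -326 and 229 on chromosome 16. LYL1, a relative of TAL1, had calls at -319 and 109 on chromosome 19. ZBTB7A, a repressor of the gamma-globin genes, had calls at -161 and 122 on chromosome 19, with no partner of either kind. In FOXO3, CBFA2T3 and LYL1 the outer call and not the inner one had the divergent partner (254, 133 and 154 bp).

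Regulators of fetal globin held 6 members of 30 (interval 9.51% to 37.3%, against 6.02% of all), and 6 of 22 with a call (27.3%, 13.2 to 48.2, an interval that includes the 14.0% of all genes with a call). Of these, KLF1, NFIX and ZBTB7A are on both lists. DNMT1, the maintenance DNA methyltransferase, had calls at 1 and 373 on chromosome 19, each with a divergent partner (248 and 120 bp). MBD2, which recruits a histone deacetylase complex to methylated CpG, had calls at 34 and 426 on chromosome 18. ATF4, the factor of the integrated stress response, had calls at -268 and 5 on chromosome 22, in a gene of 2128 bp.

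Haem synthesis and iron held 3 members of 29 (10.3%, 3.58 to 26.4, against 6.02% of all), and 3 of 24 with a call (12.5%, against 14.0%). TFR2, a transferrin receptor that senses iron, had calls at 0 and 296 on chromosome 7, the outer one with a divergent partner at 128 bp. SLC25A38, which imports glycine into mitochondria for haem synthesis, had calls at 60 and 329 on chromosome 3, with divergent partners at 138 and 150 bp. In both the other call was downstream.

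Red cell membrane and blood group genes held 2 members of 40 (5%, 1.38 to 16.5, against 6.02% of all), and 2 of 26 with a call (7.69%, against 14.0%). RHAG, the partner of the Rh proteins in the red cell membrane, had calls at -1 and 468 (positions 49636840 and 49636371 of chromosome 6, reverse) with no opposite-strand partner at either. STOM, which encodes the membrane scaffold stomatin, had calls at 1 and 432 on chromosome 9, with a convergent partner of the first at 207 bp and a divergent partner of the other at 224 bp, which is the same call seen from either start. The other erythroid genes held 3 members of 29 (10.3%, 3.58 to 26.4, against 6.02%), and 3 of 23 with a call (13.0%, against 14.0%). CAT, catalase, had calls at -1 and 263 on chromosome 11 and no partner. BPGM, the enzyme that makes the bisphosphoglycerate of red cells, had calls at 1 and 297 on chromosome 7. FBXO7, a subunit of a ubiquitin ligase, had calls at -102 and 164 on chromosome 22 and 2 more calls deeper in the gene.

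**Figure D5:**
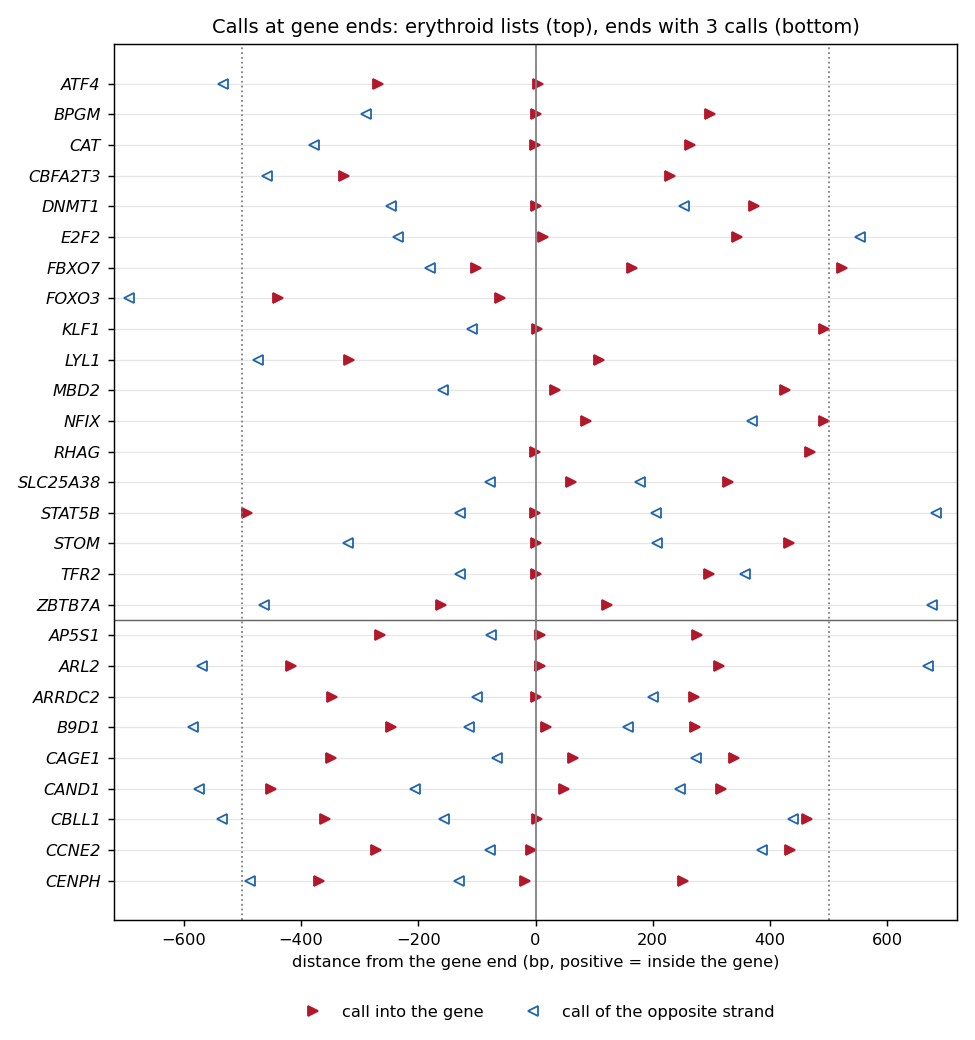
Calls at 18 members of the erythroid lists (upper rows) and at 9 ends with 3 calls (lower rows), in bp from the gene end with positive values inside the gene. Filled triangles are calls into the gene, open triangles are calls of the opposite strand, and dotted lines mark the 500 bp window. Most rows have 1 filled triangle at the gene end, while RHAG shows no opposite-strand call and B9D1 shows calls of both strands in alternation.

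The lists outside the erythroid programme were mixed. Cytosolic ribosomal protein genes held 11 members of 73 (15.1%, 8.63 to 25, against 6.02% of all), and 11 of 65 with a call (16.9%, 9.72 to 27.8, an interval that includes the 14.0% of all genes with a call). The other call was upstream in 8 of the 11 (72.7%, 43.4 to 90.3, against 39.0% of all ends with 2 calls). The nearest call lay within 10 bp of the end in 8 (against 46.3% of all members) and had a divergent partner in 9 (81.8%, 52.3 to 94.9, against 60.0%). RPL18 had calls at -335 and 2, RPL28 at -449 and -1, RPL19 at 38 and 299 and RPL7 at -1 and 253. Many ribosomal protein genes have near-identical processed copies elsewhere in the genome, and how reads with several matches were treated is not given in the sources used here.

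DNA replication and mitosis held 5 members of 53 (9.43%, 4.10 to 20.3). CCNB2, a mitotic cyclin, had calls at -1 and 374, GINS3, of the replicative helicase, at 0 and 418, and MAD2L1, of the spindle checkpoint, at -359 and 62. RNA polymerase II and pausing held 3 of 45 (6.67%), CTR9 with the calls shown above, GTF2F1, of the general factor TFIIF, at -259 and 14, and GTF2H1, of TFIIH, at -289 and 37. Translation initiation and elongation held 3 of 41 (7.32%), with EEF1B2 at -22 and 286, EIF2S1 at -311 and -9 and EIF6 at -14 and 284. Each had a coding neighbour beyond the end, whose strand was not used. The proteasome list held 1 of 31, PSMD13 at -430 and 0, and immediate early and heat shock genes 1 of 27, HSPA9 at -277 and -10. Markers of other blood lineages held 0 of 35, which allows a share of up to 8.57%. The intervals of these 6 lists include the background of 6.02%.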

How the data were processed

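Called starts were deposited as 1 list per strand. Each line gives a coordinate, a call name, a score and the strand. The coordinates that the authors deposited are other values than measurements and were used 1-based in hg38, and the score the authors deposited is 0 throughout. BWA 0.7.16a, Picard, SAMtools 1.17, deepTools 3.5.4 and hg38 are named in the submitters' processing notes. How starts were called (version, threshold, pooling of replicates) is not given in the sources used here.

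Of 26395 calls, 63 outside chromosomes 1 to 22 and X were left out, and 679 gene entries on other scaffolds were removed from the RefSeq gene table (58419 genes kept, 19821 of them coding). Ends with the same calls were counted once. Ends with several calls were set against ends with 1 call by Fisher's exact test, adjusted by the Benjamini-Hochberg method over 9 comparisons, with Wilson and Newcombe intervals at the 95% level (Python 3.11.15, pandas 2.3.3, scipy 1.17.1). The steps were tested on simulated data.

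The members and the 12 gene lists (478 symbols, all matched) were chosen with earlier results of these data known, so that lists are described by counts with no test. The text names listed ends with 3 calls and the first 8 other such ends by symbol, all members of the 5 erythroid lists, the first 4 by symbol of each other list, the 3 narrowest and 3 widest pairs, and sequences of members with several calls in 1 promoter window; ends with 4 or more calls and genes with such an end at both ends would also have been named, and there were none. Some items that this rule names are not reported here. Alternatives were other windows, gene lengths, partner distances, the outermost call, annotated 5′ ends only and each end counted. Alternatives chosen after seeing the data were nearest calls within 50 bp of the end, ends without a coding neighbour of either strand beyond the end, and the base after the call.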

Additional observations from a re-analysis of the deposited data

How the results depend on the processing

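The number of members depended on the window: 348 ends within 300 bp and 2052 within 1000 bp, against 1121 within 500 bp. With other gene lengths, annotated 5′ ends only or ends counted once it was 928 to 1157. The divergent difference no longer passed the test with the outermost call (0.992 percentage points, exact test, adjusted p = 0.720) and was 9.80 to 12.5 percentage points under its other 7 alternatives. The convergent difference was 35.4 percentage points with the outermost call, which by the rule has another inward call downstream. Under its other 7 alternatives it was 2.14 to 21.6, and the difference in deeper calls was 3.53 to 5.37 over 5, all past the test. With nearest calls within 50 bp of the annotated start, all 6 motifs stayed on their side of the threshold (CCAAT -7.93, GGGCGG -6.44 percentage points). CA at the call and the base before it was at 0.365% of nearest calls of members and 1.36% of calls of ends with 1 call, against 37.5% and 36.3% at the call and the base after it, a reading chosen after seeing the data; the cause was not tested. No paired analysis was possible because the 2 replicates form 1 group and the call lists give no value per replicate, and for the same reason neither replicate could be left out. The threshold and depth of the calls are unknown, so that an end with 1 call can have further starts below it, and starts of 1 strand less than 251 bp apart do not appear as separate calls.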

Other observations

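Each call carries a serial number in its name. For neighbouring calls of 1 strand more than 1000 bp apart the numbers followed the coordinates in all 3083 pairs up to 10000 bp apart and in all 17529 pairs farther apart, but for neighbours 251 to 1000 bp apart they did so in 3996 of 5674 pairs (70.4%, 69.2 to 71.6). At the 1057 ends with 2 calls the call nearest the gene end had the lower number at 737 (69.7%, 66.9 to 72.4). That share was 67.2% where the other call was upstream and 71.3% where it was downstream, and 69.8% for forward and 69.6% for reverse calls. At ends with 3 calls the nearest call had the lowest number at 20 of 50 (40%, 27.6 to 53.8). What the order of the numbers within such groups stands for is not given in the sources used here.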
